A study of Mus musculus with 12 samples.

Results

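Semaphorins are guidance ligands, and plexins and neuropilins are their receptors. 10 genes of this family were examined here: the ligands Sema3a, Sema3c, Sema3d, Sema6a and Sema6d, the plexins Plxna2, Plxna4 and Plxnc1, and the neuropilins Nrp1 and Nrp2. They are 10 of the 31 semaphorin, plexin and neuropilin genes in a table of 55416 genes, taken as a list of symbols without Sema5a. The list was chosen by expression changes already seen in these 12 libraries and names no single comparison. All changes given below for these genes therefore describe how the listed genes behaved and are not independent evidence for their choice. All 10 passed the filter on low values, a mean of at least 1 normalised read count. The libraries came from neonatal mouse cardiomyocytes in culture, the contractile cells of the newborn heart. 2 groups received PBS and 2 received phenylephrine (PE), an alpha1-adrenergic agonist that makes cardiomyocytes grow, for 24 h. Within each treatment, one group carried a negative-control GapmeR (control) and the other a GapmeR against lincRNA-p21 (knockdown). A GapmeR is an antisense oligonucleotide that leads RNase H to cut its target RNA. Each of the 4 groups had 3 libraries of polyadenylated RNA, and every group, controls included, received a GapmeR. The labels give neither strain, age in days nor sex, and nothing that says the libraries of a group came from separate cultures or animals, so each p-value reflects the spread of these libraries alone, which may be technical.

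Class 3 semaphorins are secreted and mostly bind a neuropilin, which holds the ligand while a class A plexin passes the signal into the cell. Class 6 semaphorins span the membrane and bind class A plexins directly. Plexins carry an intracellular domain that acts on small GTPases of the Rap and R-Ras kind, which loosens integrin adhesion and collapses the actin cytoskeleton at the site of contact. Neuropilins also bind forms of VEGF and assist the VEGF receptors of blood and lymph vessels. In the heart this system is known for septation of the outflow tract, for the pattern of sympathetic nerves and coronary vessels, and for trabeculation.

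The target of the GapmeR, Trp53cor1 (lincRNA-p21), had normalised read counts of 59.8, 70.6 and 63.2 in the PBS control libraries and 12.7, 22.6 and 10.1 in the PBS knockdown libraries. With PE they were 56.0, 34.0 and 34.7 in control and 8.56, 9.97 and 8.93 in knockdown libraries, so no knockdown library reached a control library. Depth was even, at 21325485 to 22139681 reads in genes per library. PBS control library 2, PBS knockdown library 2 and PE knockdown library 1 were each the farthest from the mean of their group. Their root mean square log2 distances were 0.175, 0.248 and 0.190, while PBS knockdown library 1, at 0.181, was not set apart. Results that change without these 3 libraries are given with both values. None of 10 cardiomyocyte markers was at 0, and their summed level was 769400 to 867382 in PBS control and 1250854 to 1519654 in PE control libraries. Between these groups only 3 of the 10 markers were called higher and 1 lower. Most of the higher sum lay in Myh6 (means of 323169 and 604630) and Actc1 (181634 and 431619). In knockdown libraries the summed level was lower without overlap, at 631134 to 680730 in PBS and 989408 to 1079861 in PE, with 0 and 1 of the 10 markers called lower. Mitochondrial genes held 8.19% to 10.7% of reads in PBS control and 4.33% to 7.55% in PBS knockdown libraries, and overlapped in PE. Cells of other types were also present. Endothelial markers summed to 6044 to 7182 in PBS control and 10925 to 12492 in PE control libraries, and fibroblast markers to 74360 to 80325 and 43062 to 47093. In bulk RNA, fewer cells of a type and less RNA per cell cannot be told apart.

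The 10 genes covered a wide range of levels, compared here per kb of annotated exon. In PBS control cells Nrp1, the co-receptor shared by class 3 semaphorins and VEGF, was highest at 379 ± 16.9 normalised read counts per kb (mean ± SD over the 3 libraries of a group, n = 3, as for all levels). Sema6d followed at 208 ± 3.72, Nrp2 at 161 ± 4.17 and Plxna4 at 133 ± 7.02. Sema3c and Sema3d came next at 83.6 ± 10.4 and 82.3 ± 4.56, and were the only neighbours in the order whose libraries overlapped. Plxna2 stood at 53.7 ± 2.67, Sema6a at 35.5 ± 5.91, Plxnc1 at 22.2 ± 3.06 and Sema3a at 13.7 ± 1.05. With PE the order changed: Nrp2 was second in PE control cells at 282 ± 4.75, and Sema6d, at 110 ± 5.23, overlapped Plxna4 at 108 ± 2.71. Neither of the 2 family genes above Nrp1 in PBS control cells was among the 10. Plxnb2, a receptor of class 4 semaphorins, stood at 1654 ± 131 per kb, and Plxna1, another class A plexin, also lay above Nrp1.

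**Figure D1:**
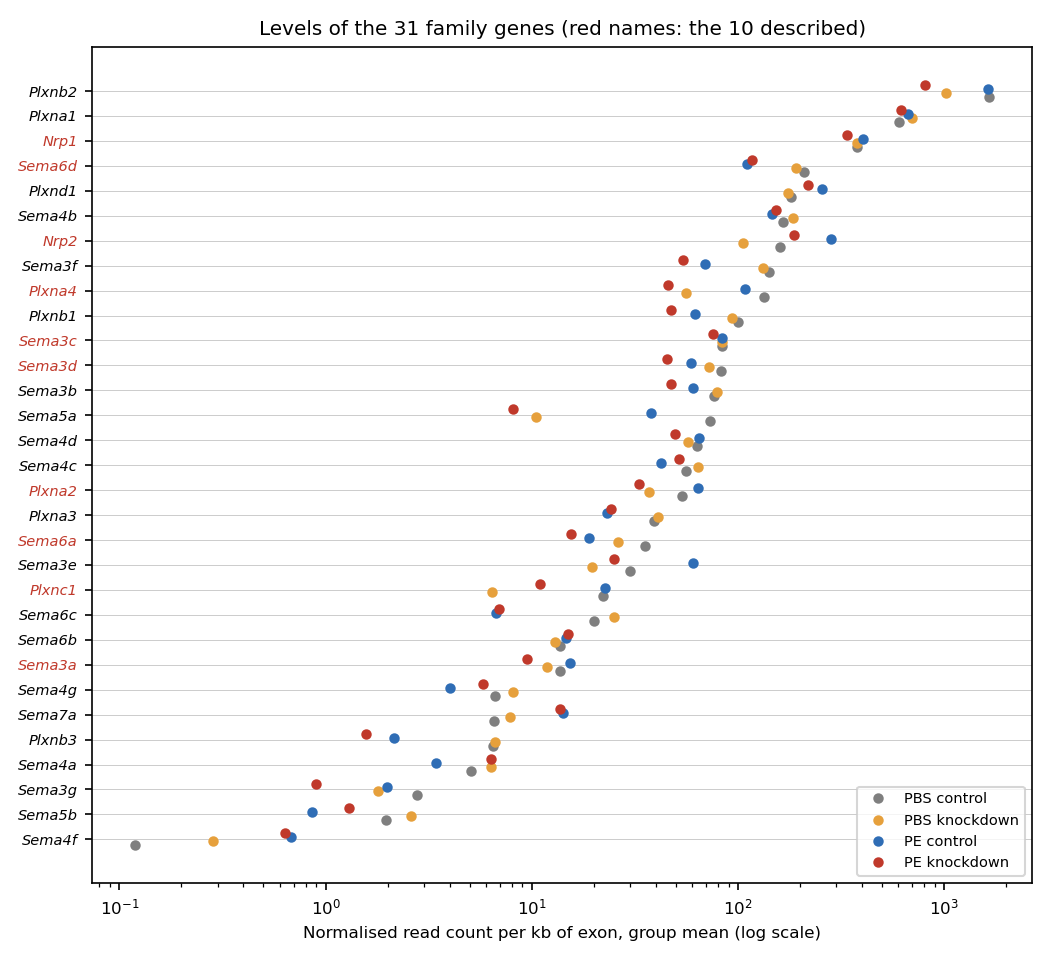
Group means of normalised read count per kb of exon (x axis, log scale) for the 31 family genes (y axis, ordered by the PBS control level), with 1 point per group of 3 libraries and the 10 genes described in red lettering. Nrp1 and Sema6d are the highest of the 10 in PBS control cells, Sema3a the lowest, and Plxnc1 and Plxna4 show knockdown points well to the left of their control points.

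Promoters are shown for 3 genes that behaved differently: Plxnc1, the gene of the 10 that fell most with the knockdown in PBS, Nrp2, the only one called higher with PE in control cells, and Sema3d, which fell with PE. The bases before the RefSeq transcription start (GRCm38.p6) are given 5′ to 3′ on the gene's strand, trimmed where they ran into an annotated exon, with GC boxes (GGGCGG on either strand) in capitals. The windows are chr10:94944846-94945095 on the minus strand, chr1:62703067-62703284 on the plus strand and chr5:12382916-12383165 on the plus strand.
Plxnc1: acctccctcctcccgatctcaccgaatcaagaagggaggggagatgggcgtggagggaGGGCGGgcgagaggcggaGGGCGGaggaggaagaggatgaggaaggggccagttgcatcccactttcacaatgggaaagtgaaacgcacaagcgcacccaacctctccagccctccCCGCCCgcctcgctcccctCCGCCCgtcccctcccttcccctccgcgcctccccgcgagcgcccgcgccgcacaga
Nrp2: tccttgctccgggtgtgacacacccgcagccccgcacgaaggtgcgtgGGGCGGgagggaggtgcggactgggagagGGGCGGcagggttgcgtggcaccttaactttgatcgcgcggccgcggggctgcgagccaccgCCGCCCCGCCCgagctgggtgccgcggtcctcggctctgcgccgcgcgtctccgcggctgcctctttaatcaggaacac
Sema3d: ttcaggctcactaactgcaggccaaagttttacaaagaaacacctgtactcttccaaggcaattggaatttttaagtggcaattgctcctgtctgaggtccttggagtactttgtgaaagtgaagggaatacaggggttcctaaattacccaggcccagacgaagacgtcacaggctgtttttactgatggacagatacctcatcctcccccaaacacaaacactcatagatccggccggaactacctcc
The Plxnc1 window held 4 GC boxes and 22 CpG dinucleotides. The Nrp2 window had 5 GC boxes in its 250 bases, 4 of them in the 218 bases printed, where a pair shares an end base, and 32 CpG. Sema3d had no GC box and 4 CpG, against a median of 6 CpG over 32851 mouse promoters of 250 bases. A GC box lies in 32.7% of those promoters. None of the 3 windows held an AP-1 site (TGANTCA) on either strand, found in 6.75% of all promoters. The same was true of a TATA box (TATAAA), found in 12.4%. The core of an NFAT site (TGGAAA), found in 18.6%, was absent from all 3 as well. Sema6d, which also fell with PE, is not shown. Its window at chr2:124089719-124089968 held 1 GC box and 9 CpG. The window at chr2:124653331-124653580 had no GC box, 6 CpG and 1 NFAT core. These matches describe letters only. 8 of the 10 genes had an entry in the RefSeq promoter table.

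With PE in control cells, the ligands Sema3d, Sema6a and Sema6d fell and the co-receptor gene Nrp2 rose, while the ligands Sema3a and Sema3c and the other receptors did not pass the test. In control cells 1 of the 10 genes passed limma as higher (Nrp2), where 12.6% of all 21799 genes tested were higher. 3 were lower (Sema3d, Sema6a and Sema6d), where 12.8% of all genes were lower. In knockdown cells the same 4 genes passed in the same directions and Plxnc1 was also higher, giving 2 higher and 3 lower. Of all genes, 13.4% were higher and 14.0% lower there. The median log2 change of the 10 genes was 0.02 in control and -0.22 in knockdown cells, beside -0.0046 and 0.0048 over all genes. A call means a Benjamini-Hochberg adjusted p under 0.05 over all genes tested.

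With the knockdown, every call among the 10 genes was a fall, and the 4 called in both treatments were receptors. Outside the list, the ligands Sema5a and Sema3e also fell in both treatments (below). In PBS 0 of the 10 genes were higher and 4 lower (Plxna2, Plxna4, Plxnc1 and Nrp2), where 1.36% of all genes were higher and 3.21% lower. In PE 0 were higher and 6 lower, with Sema3a and Sema3d added to those 4, where 4.57% of all genes were higher and 7.14% lower. The lower cardiomyocyte marker sums in both treatments, and the lower mitochondrial share in PBS, moved with these falls, and their part was not tested. Median log2 changes of the 10 genes were -0.33 in PBS and -0.49 in PE, against 0.0013 and 0.013 for all genes. No gene of the 10 passed the test of the interaction, that is, of a PE response that differs between knockdown and control, which 0.0550% of all genes passed. 3 of them had an unadjusted p under 0.05 in limma (Sema3a, Plxna2 and Plxnc1), and edgeR and DESeq2 called 0 as well. Scaling libraries to the same total, in place of median-of-ratios factors, moved the median change of all genes to -0.15 and -0.13 for PE in control and knockdown cells, and to 0.065 and 0.092 for the knockdown in PBS and PE. Under that scaling every call of the 10 genes named here held except Sema3d with the knockdown in PE.

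**Figure D2:**
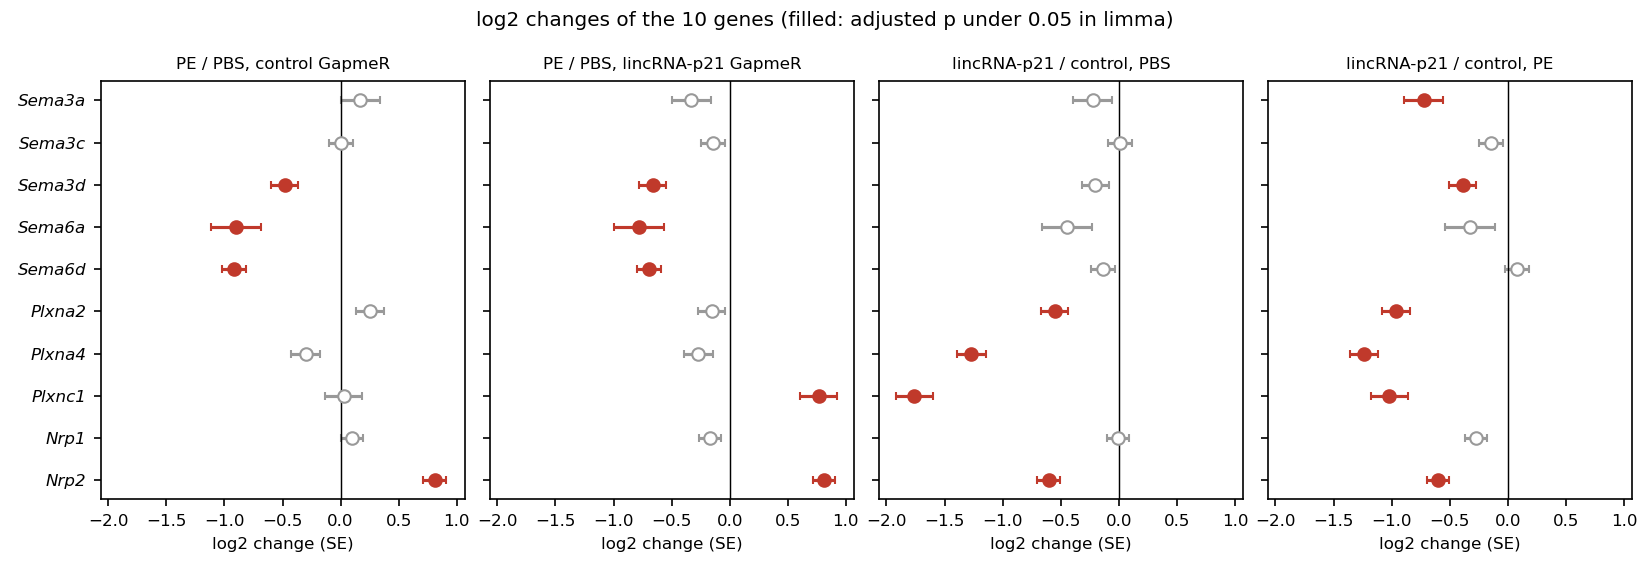
Log2 changes (x axis, limma estimate with its SE) of the 10 genes (y axis) in 4 comparisons, 3 libraries per group, filled where the adjusted p was under 0.05. Sema3d, Sema6a and Sema6d lie left of 0 and Nrp2 right of 0 in both PE panels, while Plxnc1, Plxna4, Plxna2 and Nrp2 lie left of 0 in both knockdown panels.

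Among the secreted ligands, Sema3d changed with PE, Sema3a only passed with the knockdown in PE, and Sema3c passed nowhere. Sema3d (ENSMUSG00000040254.12, GRCm38 chromosome 5, 12383385 to 12588948, plus strand) encodes a guidance cue of endothelial and neural crest cells. Its normalised read counts were 752.4, 688.2 and 681.5 in PBS control and 485.8, 482.4 and 553.6 in PE control libraries. Knockdown libraries had 688.2, 515.2 and 652.7 in PBS and 378.9, 407.7 and 375.2 in PE. Every PE library thus lay below every PBS library of the same GapmeR, and PE knockdown libraries were the lowest of all. PE lowered Sema3d by a log2 change of -0.48 ± 0.12 in control cells (limma SE here and below, adjusted p = 0.0042) and of -0.66 ± 0.12 in knockdown cells (limma, adjusted p = 2.2e-04). The knockdown change in PE was -0.39 ± 0.12 (limma, adjusted p = 0.035), but it missed the threshold with values scaled to the same total (-0.30, limma adjusted p = 0.126). It also missed it in 7 of the 12 fits with a library left out, that of PBS control library 3 and those of each of the 6 PE libraries, with limma adjusted p between 0.050 and 0.153. In PBS the knockdown change of Sema3d was -0.20 ± 0.12 (limma, adjusted p = 0.39). A fall also appeared in 9 of 12 fibroblast markers with PE in control cells (1 rose), and their part in the fall of Sema3d was not tested.

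Sema3a (ENSMUSG00000028883.20, chromosome 5, 13125414 to 13602565, plus strand) encodes the repellent that patterns sympathetic nerves of the heart. Counts were 190.7, 174.9 and 203.9 in PBS control, 194.9, 135.6 and 161.3 in PBS knockdown and 206.8, 200.8 and 233.4 in PE control libraries. The PE knockdown libraries were lower, at 164.8, 107.7 and 120.1, and did not overlap the PE control libraries. There Sema3a fell by 0.72 ± 0.17 on the log2 scale (limma, adjusted p = 0.0066). Without PE knockdown library 2 this change was -0.60 and missed the threshold (limma, adjusted p = 0.052). The knockdown change in PBS was -0.22 ± 0.17 (limma, adjusted p = 0.54), and the difference between the 2 knockdown changes was -0.50 ± 0.24 (limma, unadjusted p = 0.048, adjusted p = 0.50). With PE, Sema3a stood at 0.17 ± 0.17 in control cells (limma, adjusted p = 0.51) and -0.33 ± 0.17 in knockdown cells (limma, adjusted p = 0.16). The latter passed without the 3 libraries far from their groups (-0.64, limma adjusted p = 0.0012), without PBS knockdown library 2 or PE knockdown library 1 (limma adjusted p = 0.0498 and 0.030) and with the same total (-0.47, limma adjusted p = 0.038).

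Sema3c (ENSMUSG00000028780.14, chromosome 5, 17574281 to 17730268, plus strand), a ligand needed for the outflow tract, was the steadiest of the 10 genes in these libraries. Counts were 595.9, 523.5 and 672.0 in PBS control and 593.9, 590.2 and 611.5 in PBS knockdown libraries. PE control libraries had 587.1, 589.8 and 614.4 and PE knockdown libraries 535.2, 526.3 and 561.9. The PE knockdown libraries lay below both the PE control and the PBS knockdown libraries, yet log2 changes ran only from -0.15 to 0.01 over the 4 comparisons and none passed limma (adjusted p from 0.33 to 0.98). Sema3d, Sema3a and Sema3c all lie on chromosome 5, with Sema3e between Sema3a and Sema3c, and their libraries showed different patterns.

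The membrane-bound ligands Sema6a and Sema6d both fell with PE and did not pass the test with the knockdown. Sema6d (ENSMUSG00000027200.18, chromosome 2, 124089969 to 124667770, plus strand) encodes a ligand that acts through Plxna1 in heart development. Its counts were 2153.8, 2232.2 and 2197.3 in PBS control and 1147.3, 1119.0 and 1225.5 in PE control libraries. With the knockdown they were 1722.7, 2257.8 and 2046.2 in PBS and 1354.1, 1203.1 and 1146.6 in PE. All 6 PBS libraries lay above all 6 PE libraries, whatever the GapmeR. The log2 change with PE was -0.92 ± 0.10 in control and -0.70 ± 0.10 in knockdown cells (limma, adjusted p = 1.7e-06 and 4.3e-05). With the knockdown Sema6d was -0.14 ± 0.10 in PBS and 0.08 ± 0.10 in PE (limma, adjusted p = 0.55 and 0.71).

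Sema6a (ENSMUSG00000019647.17), a ligand of Plxna2 and Plxna4, was lower in level and more variable. Counts were 285.6, 371.2 and 277.5 in PBS control and 171.3, 141.3 and 185.6 in PE control libraries. Knockdown libraries had 181.3, 286.5 and 222.8 in PBS and 172.3, 150.5 and 87.4 in PE. Within each GapmeR the PE libraries lay below the PBS libraries, and within each treatment the knockdown and control libraries overlapped. PE lowered Sema6a by 0.90 ± 0.21 on the log2 scale in control cells and by 0.78 ± 0.21 in knockdown cells (limma, adjusted p = 0.0038 and 0.0099). The second value rests on PE knockdown library 3, since without it the change was -0.49 (limma, adjusted p = 0.076). The knockdown changes were -0.45 ± 0.21 in PBS and -0.33 ± 0.21 in PE (limma, adjusted p = 0.29 and 0.41). The latter passed only without the 3 libraries far from their groups (-0.52, limma adjusted p = 0.030). Beside the falls of Sema6a and Sema6d with PE, 9 of 12 fibroblast markers fell in control and 10 in knockdown cells, and 1 rose in each. The genes most like Sema6d over the 12 libraries were Kif21b, Stxbp5 and Fbln1 (Pearson's r = 0.99 for each). Of these only Fbln1, the third, is one of the fibroblast markers. The part of fibroblasts in these falls was not tested.

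**Figure D3:**
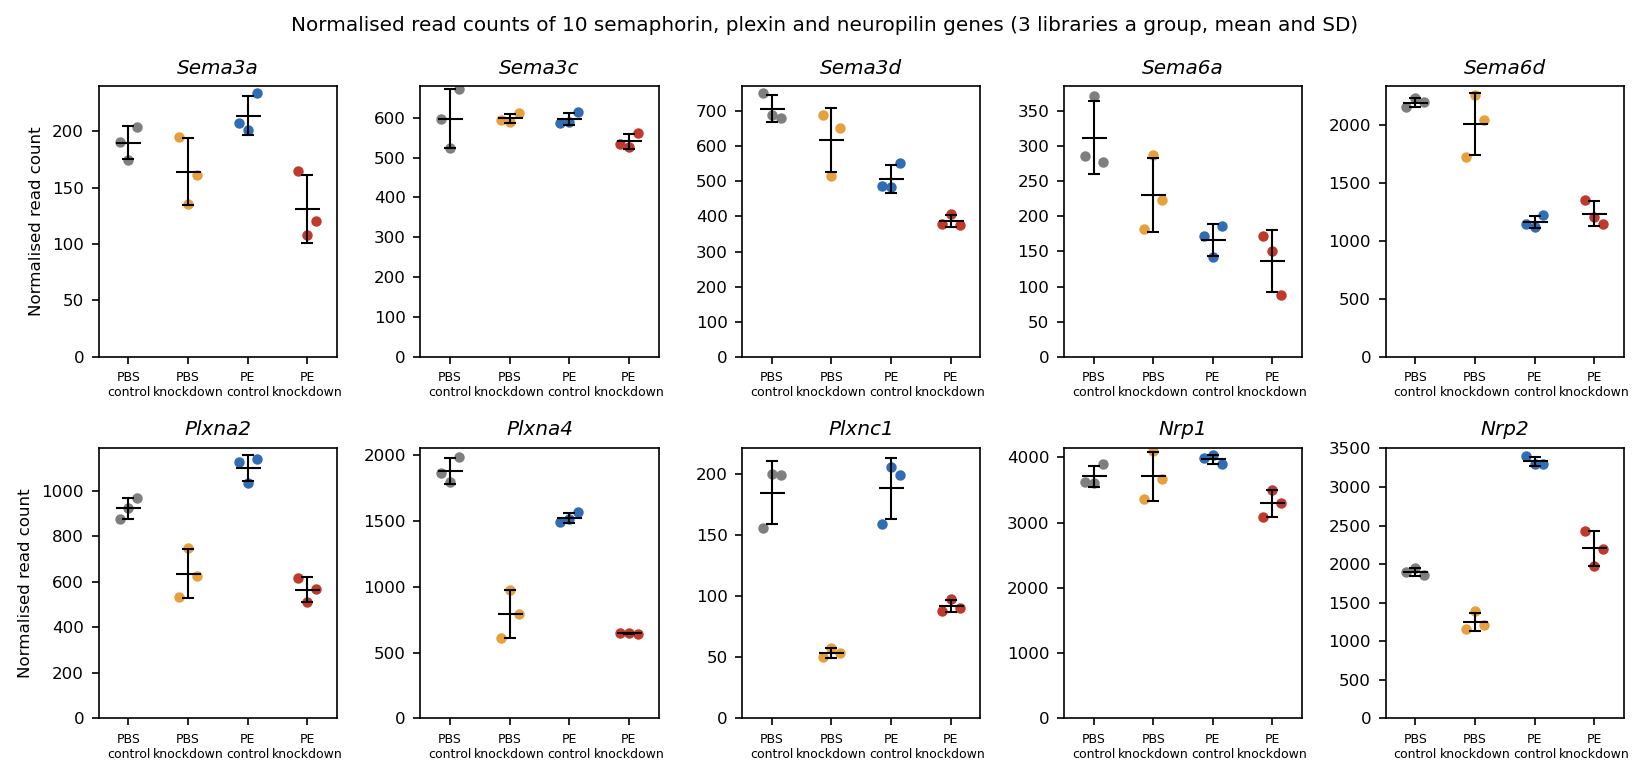
Normalised read count (y axis, from 0) of each of the 10 genes in every library, with points for the 3 libraries of each group (x axis) and bars for mean and SD. PE libraries of Sema6d sit between 1119.0 and 1354.1 against 1722.7 to 2257.8 in PBS, and knockdown libraries of Plxnc1 sit between 49.9 and 97.7 against 155.6 to 206.2 in control cells.

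The 3 plexins were lower with the knockdown in both treatments, and their libraries did not overlap. Plxna4 (ENSMUSG00000029765.13, chromosome 6, 32144268 to 32588192, minus strand) encodes a receptor of Sema3a, with a neuropilin, and of Sema6a. Its counts were 1862.5, 1794.6 and 1989.6 in PBS control and 612.9, 976.1 and 791.2 in PBS knockdown libraries. With PE they were 1495.2, 1513.2 and 1568.5 in control and 645.5, 651.9 and 640.3 in knockdown libraries. Even the highest knockdown library stayed below the lowest control library of either treatment. The log2 change was -1.27 ± 0.12 in PBS and -1.24 ± 0.12 in PE (limma, adjusted p = 2.3e-06 and 1.2e-06), with a difference of 0.03 ± 0.18 between them. With PE, Plxna4 was -0.30 ± 0.12 in control cells without overlap of libraries, which missed the threshold (limma, adjusted p = 0.085). That change passed with values scaled to the same total (-0.46, limma adjusted p = 0.010), without PBS knockdown library 1 or 2 (limma adjusted p = 0.024 and 0.015) and without the 3 libraries far from their groups (-0.34, limma adjusted p = 0.0044). In knockdown cells the PE change was -0.27 ± 0.12 (limma, adjusted p = 0.12), and it passed with the same total (-0.41, limma adjusted p = 0.019) and without PBS knockdown library 1 (-0.44, limma adjusted p = 0.0039).

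Plxna2 (ENSMUSG00000026640.13, chromosome 1, 194618218 to 194816869, plus strand) encodes another class A plexin, known for outflow tract and axon guidance. Counts were 875.8, 924.4 and 967.5 in PBS control and 531.3, 746.6 and 625.2 in PBS knockdown libraries. With PE they were 1126.8, 1035.0 and 1138.7 in control and 617.6, 510.4 and 568.8 in knockdown libraries. PE control libraries were the highest of all 4 groups and PE knockdown libraries overlapped those of PBS knockdown. The knockdown lowered Plxna2 by 0.55 ± 0.12 on the log2 scale in PBS and by 0.96 ± 0.12 in PE (limma, adjusted p = 0.0087 and 1.3e-05). The first missed the threshold without PBS control library 3 (-0.52, limma adjusted p = 0.055). The difference between both knockdown changes was -0.41 ± 0.17 (limma, unadjusted p = 0.024, adjusted p = 0.43). With PE, Plxna2 was 0.25 ± 0.12 in control cells (limma, adjusted p = 0.13), which passed without PBS knockdown library 2 (limma adjusted p = 0.048) and without the 3 libraries far from their groups (0.26, limma adjusted p = 0.030). In knockdown cells it was -0.16 ± 0.12 (limma, adjusted p = 0.37).

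Plxnc1 (ENSMUSG00000074785.6, chromosome 10, 94790866 to 94944835, minus strand) encodes the receptor of Sema7a, known from leukocytes. Its PBS control libraries had 155.6, 200.4 and 199.2 normalised read counts and its PBS knockdown libraries 49.9, 57.8 and 53.2. With PE the counts were 159.4, 206.2 and 199.7 in control and 87.8, 97.7 and 90.3 in knockdown libraries. Control libraries lay in the same range with and without PE, while every PE knockdown library lay above every PBS knockdown library. The log2 change with the knockdown was -1.76 ± 0.16 in PBS, the largest of the 10 genes, and -1.02 ± 0.16 in PE (limma, adjusted p = 8.8e-07 and 2.0e-04). In knockdown cells PE raised Plxnc1 by 0.77 ± 0.16 (limma, adjusted p = 0.0011), against 0.03 ± 0.16 in control cells (limma, adjusted p = 0.93). The difference between those responses was 0.74 ± 0.23 with an unadjusted p of 0.0039, and it did not pass the adjustment (limma, adjusted p = 0.33, and 0.147 to 0.589 over the alternatives). Leukocyte markers, which summed to 2671 to 3348 in PBS control and 2630 to 2766 in PBS knockdown libraries, showed 1 of 12 higher and 0 lower with the knockdown in PBS. In PE they summed to 3681 to 4266 in control and 3479 to 4085 in knockdown libraries, with 0 of 12 called. With PE, 7 of the 12 rose in control cells and 9 in knockdown cells (median log2 change 0.64 and 0.97), and none fell. Their part in the rise of Plxnc1 was not tested.

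The neuropilins parted: Nrp2 rose with PE and fell with the knockdown, while Nrp1 passed in no comparison. Nrp2 (ENSMUSG00000025969.16, chromosome 1, 62703285 to 62818695, plus strand) encodes the co-receptor of Sema3c and Sema3f and of VEGF-C. Counts were 1891.9, 1954.1 and 1856.6 in PBS control and 3398.7, 3299.5 and 3303.1 in PE control libraries. With the knockdown they were 1157.8, 1386.5 and 1215.6 in PBS and 2432.0, 1980.6 and 2200.9 in PE. The 4 groups did not overlap, and PE knockdown libraries stood just above PBS control libraries. PE raised Nrp2 by 0.81 ± 0.10 on the log2 scale in control and by 0.81 ± 0.10 in knockdown cells (limma, adjusted p = 3.4e-06 in each). The knockdown lowered it by 0.60 ± 0.10 in PBS and by 0.60 ± 0.10 in PE (limma, adjusted p = 7.8e-04 and 2.9e-04). The interaction was 0.0030 ± 0.14 (limma, adjusted p = 0.995). With PE in control cells, 9 of 12 endothelial markers rose and 1 fell. Smooth muscle and pericyte markers summed to 30838 to 34399 in PBS control and 56403 to 58275 in PE control libraries, with 4 of 10 higher and 5 lower. Most of the higher sum lay in Acta2 (means of 20529 and 46552), and the median log2 change of the 10 markers was -0.68. The part of endothelial, smooth muscle and pericyte cells in the rise of Nrp2 was not tested. With the knockdown in PE, 1 of 12 endothelial and 3 of 10 smooth muscle and pericyte markers fell and none rose. In PBS 0 of 12 and 1 of 10 fell, and none rose.

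Nrp1 (ENSMUSG00000025810.10, chromosome 8, 128358604 to 128503363, plus strand), the co-receptor of Sema3a and of VEGF-A, had counts of 3625.4, 3605.5 and 3901.0 in PBS control and 3358.3, 4101.6 and 3670.7 in PBS knockdown libraries. With PE they were 3989.1, 4029.5 and 3892.5 in control and 3093.5, 3503.7 and 3293.9 in knockdown libraries. The PE knockdown libraries lay below the PE control libraries without overlap, a log2 change of -0.27 ± 0.09 that missed the threshold (limma, adjusted p = 0.074). It passed with DESeq2 on recovered reads (-0.27, adjusted p = 0.032), and in limma without PBS knockdown library 2 (adjusted p = 0.021) and without the 3 libraries far from their groups (-0.22, adjusted p = 0.025). In PBS the knockdown change was -0.0041 ± 0.09 (limma, adjusted p = 0.99), and PE gave 0.10 ± 0.09 in control and -0.17 ± 0.09 in knockdown cells (limma, adjusted p = 0.50 and 0.21). The last passed with values scaled to the same total (-0.31, limma adjusted p = 0.026).

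The other 21 genes of the family, 15 semaphorins and 6 plexins, include the gene of the 31 with the largest fall in both treatments. With the knockdown 2 other semaphorins and 1 other plexin were lower in PBS, and 3 and 1 in PE, where 1 other semaphorin was higher. Over all genes 1.36% were higher and 3.21% lower in PBS, and 4.57% and 7.14% in PE. Sema5a, a transmembrane ligand left out of the list, fell by 2.80 ± 0.13 on the log2 scale in PBS and by 2.22 ± 0.13 in PE (limma, adjusted p = 6.8e-11 and 2.1e-09). Sema3e, the secreted ligand of Plxnd1, fell by 0.61 ± 0.13 and 1.28 ± 0.13 (limma, adjusted p = 0.0071 and 1.0e-06). Plxnb2 fell by 0.72 ± 0.13 and 1.03 ± 0.13 (limma, adjusted p = 0.0023 and 1.8e-05). In PE, Sema4d fell by 0.38 ± 0.12 and Sema4a rose by 0.91 ± 0.27 (limma, adjusted p = 0.046 and 0.037). With PE in control cells 2 other semaphorins rose and 6 fell, and 1 other plexin rose and 3 fell, where 12.6% of all genes were higher and 12.8% lower. Sema7a, the ligand of Plxnc1, rose by 1.07 and Sema3e by 1.02, while Sema6c fell by 1.54, Sema5b by 1.04, Sema3f by 1.03 and Plxnb3 by 1.57 (all with limma adjusted p under 0.05). Some of these levels were low. Mean normalised read counts in PBS control and PE control libraries were 13.8 and 6.10 for Sema5b, 42.0 and 14.0 for Plxnb3 and 21.6 and 46.5 for Sema7a.

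**Figure D4:**
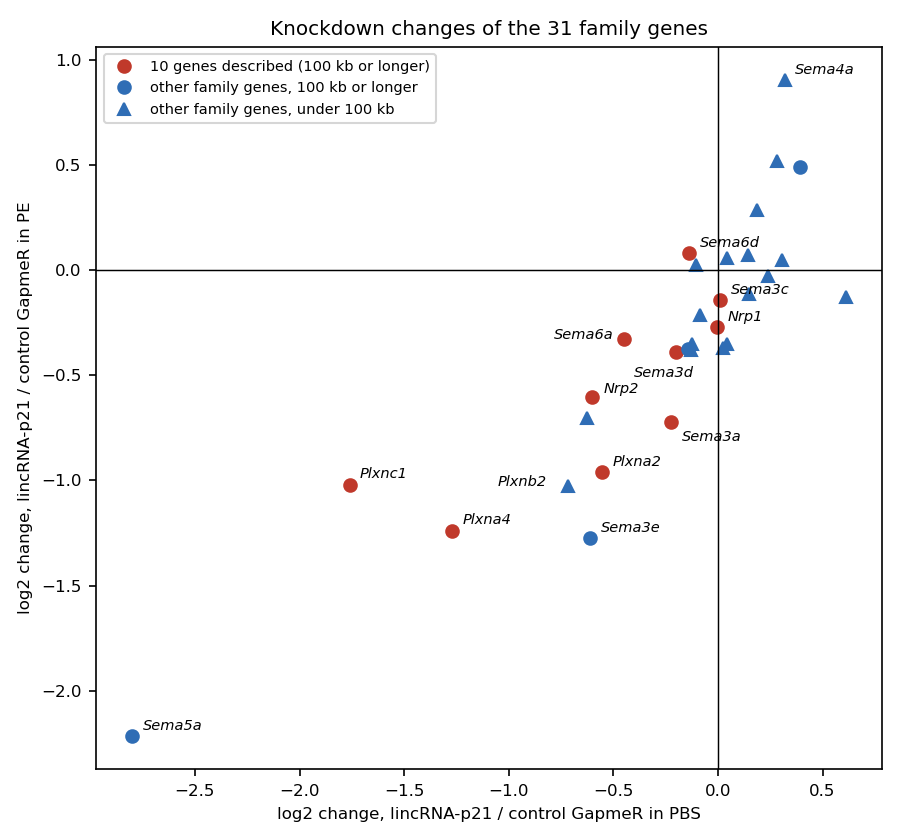
Log2 change with the knockdown in PBS (x axis) and in PE (y axis) for the 31 family genes, 1 point per gene from 3 against 3 libraries each, with the 10 genes in red and family genes shorter than 100 kb as triangles. Sema5a (-2.80, -2.22), Plxna4 (-1.27, -1.24) and Plxnc1 (-1.76, -1.02) lie at the lower left, and Sema4a is the highest in PE at 0.91.

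All 10 genes are long. The list was chosen by expression changes, and knockdown changes varied with span over all genes (below), so their length may not be independent of that choice. Their annotated spans run from 115 kb (Nrp2) to 578 kb (Sema6d), and 14 of the 31 family genes span at least 100 kb. In PE, 9 of those 14 fell with the knockdown (64.3%), beside 33.7% of all 2338 tested genes of that span. In PBS it was 6 of 14 (42.9%), beside 16.7%. Of these fallen genes, 6 in PE and 4 in PBS were among the 10 genes chosen by change. Of the 17 shorter family genes 1, Plxnb2, fell in each treatment (5.88%), beside 1.60% of all shorter genes in PBS and 3.98% in PE. Those shares over all genes take in genes of low level. Among all genes with a mean of at least 50, the shares that fell in PE were 65.3% over 200 kb and 30.2% at 100 to 200 kb. In PBS they were 35.2% and 13.6%. For spans of 50 to 100 kb, 10 to 50 kb and under 10 kb they were 15.4%, 5.42% and 4.15% in PE. In PBS these were 6.01%, 2.36% and 1.28%. Median log2 changes over 200 kb, at that mean, were -0.55 with the knockdown in PE and -0.31 in PBS. At 100 to 200 kb they were -0.23 and -0.12.

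Set beside genes of their own span class with a mean of at least 50, the 10 genes lay on both sides of the median. These ranks describe genes that were chosen by their changes. Plxnc1, at 154 kb, had a larger fall in PBS than all but 1 of 1083 genes of 100 to 200 kb. Plxna2, at 199 kb, had a fall in PE that 3.42% of that class exceeded, and 13.0% exceeded that of Nrp2. Among 619 genes over 200 kb, 62 fell more than Plxna4 (444 kb) in PE and 214 more than Sema3a (477 kb). Sema6d, the longest of the 10, lay at the other end, since 96.0% of that class had a lower change in PE. Sema3c and Nrp1 also stood above the median of their class in PBS, where 75.5% and 73.6% of genes were lower. In PE 60.6% and 44.5% were lower, so Nrp1 lay below the median there. For Sema3d 64.8% of its class were lower in PBS and 65.4% in PE, and for Sema6a 13.1% and 37.9%. The part of gene length in the knockdown changes was not tested beyond these values.

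**Figure D5:**
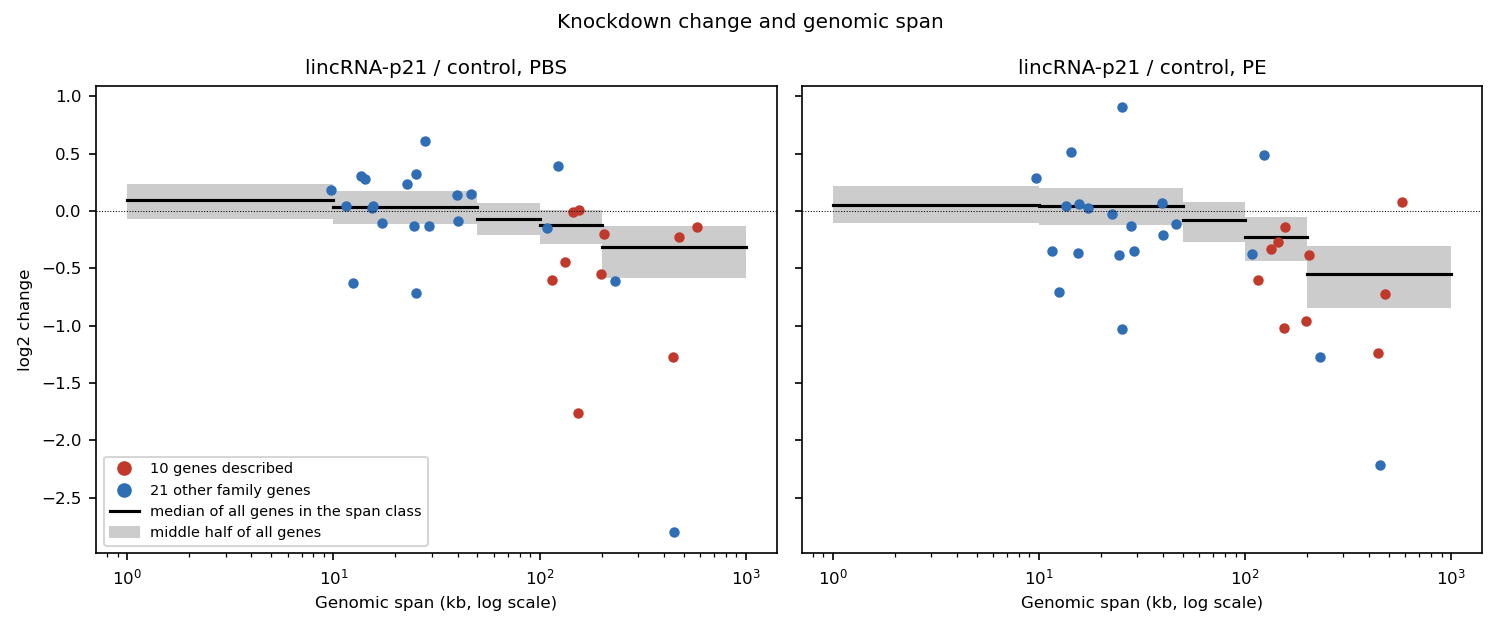
Log2 change with the knockdown (y axis) against genomic span in kb (x axis, log scale) in PBS and in PE for the 10 genes (red) and the 21 other family genes (blue). Black lines and grey boxes give the median and the middle 50% of all genes with a mean of at least 50 in 5 span classes, and the median falls to -0.31 in PBS and -0.55 in PE over 200 kb, with Sema6d near 0.08 above it in PE.

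Genes that work with the family were taken from lists of known partners (limma, adjusted p under 0.05 for each change named as a rise or fall). Of all genes tested, 5543 were called with PE in control cells against 997 with the knockdown in PBS and 2553 in PE, so more calls with PE are no trait of these lists. Of 8 VEGF ligands and receptors, which share neuropilins, 5 rose and 1 fell with PE in control cells (median log2 change 0.56). Flt1 was up by 1.54, Flt4 by 1.40 and Vegfd down by 1.63. Endothelial markers moved there too, with 9 of 12 higher and 1 lower (median 1.07), and the part of endothelial cells was not tested. With the knockdown none of the 8 was called in PBS by limma (1 at an unadjusted p under 0.05), and in PE Pgf rose by 0.73 and Flt1 fell by 0.53. Of 13 further co-receptors of semaphorins, 5 rose and 1 fell with PE in control cells, among them Cntn2 (1.77), Nrcam (1.55) and Met (0.84). The knockdown lowered the integrin gene Itga1, which pairs with the Sema7a receptor Itgb1, by 0.43 in PBS and 0.52 in PE, and Nrcam by 0.97 in PE. Of 28 genes of plexin signalling 10 rose and 3 fell with PE in control cells (median 0.15). Rnd1, a small GTPase that binds plexins, rose by 1.65 and Rhod by 1.13, while Dpysl4, a collapsin response mediator, fell by 1.27. With the knockdown only Fyn, a kinase that acts downstream of Plxna2, was called in PBS, with a fall of 0.48. In PE 6 of the 28 fell and 1 rose, with Fyn at -0.91, Crmp1 at 0.94 and Mical3, a flavoprotein relative of the plexin effector Mical1, at -0.61. The partner genes named as falling with the knockdown are long as well: Flt1 spans 164 kb, Itga1 149 kb, Nrcam 273 kb, Fyn 197 kb and Mical3 199 kb. The part of length in their falls was not tested.

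Over the 12 libraries the 10 genes fell into loose sets. Pearson's r of log2 values, a description over libraries that share the 4 groups, was 0.91 between Plxna2 and Plxna4, 0.83 between Plxna4 and Plxnc1 and 0.81 between Plxna2 and Plxnc1. It was 0.86 between Sema6a and Sema6d and 0.76 between Sema3d and Sema6d, and -0.71 between Sema6d and Nrp2, which PE moved in opposite directions. Outside the list, among 11595 genes with a mean of at least 50, the gene most like Sema6d was Kif21b (r = 0.99), that most like Nrp2 was Zfp462 (0.99) and that most like Plxna4 was Thsd4 (0.99). For Sema3d it was Wrn (0.98), for Plxna2 Svil (0.98), for Sema6a Tshz2 (0.97) and for Plxnc1 Adamts12 (0.96). Nrp1 was most like Map3k4 (0.93), Sema3a most like Aftph (0.90) and Sema3c, which varied least, most like Trip12 (0.86). 8 of the 10 genes hold other annotated genes within their span, all at low level: the highest, Gm37121 within Nrp2, had a mean of 5.97 normalised read counts.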

How the data were processed

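Polyadenylated RNA was sequenced in 12 libraries, 3 per group. STAR, SAMtools, featureCounts and the build GRCm38.p6 are named in the submitters' processing notes; versions, strand use and annotation release are not given in the sources used here. Values in the deposited table, a signal, are read counts that the authors divided by 1 size factor per library (0.921 to 1.11). Dividing by the smallest step gave whole reads for all values (tolerance 0.001), 21325485 to 22139681 per library; for 2 libraries the factor was near 1. Identifiers were matched without version to GENCODE M21, which named 52135 of 55416 genes (35 matched with their version). Unnamed genes held 0.195% of the signal.

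The 21799 genes whose mean value was 1 or more were tested with limma 3.58.1 (trended prior, two-sided) on log2 of the value plus 1, with 4 group means over 12 libraries, 5 comparisons and Benjamini-Hochberg adjustment at 0.05. The log2 changes are on that scale and understate changes of low genes. The fit was tested on simulated data. The 10 genes, the gene lists and the tests were chosen with earlier results of these data known. Outside the 10 genes, up to 3 called genes of each list with the largest change, and genes a result turns on, are named. Likeness is the highest Pearson r over 12 libraries. Alternatives were edgeR 4.0.16 with TMM and median-of-ratios factors and DESeq2 1.42.0 on recovered reads, a pseudocount of 0.1, no filter, libraries scaled to the same total, a replicate block, each library left out, and 3 libraries left out. Spans are GENCODE gene bounds, and exon length is the union of annotated exons. Between replicates of a group, chi-square over degrees of freedom was 2.31 to 47.9, so none repeats another. No column of the table was left unused (0).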

Additional observations from a re-analysis of the deposited data

How the results depend on the processing

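Over all 20 alternatives no change of the 10 genes that passed the threshold reversed, and 972 values, taken per gene, comparison and setting, kept their side of it, with 17 gaining and 11 losing it, each given above beside its gene. Counts of called genes among the 10 ranged with a library left out from 4 to 6 for PE in control cells, 4 to 6 for PE in knockdown cells, 3 to 4 for the knockdown in PBS and 4 to 7 in PE, and stayed at 0 for the interaction. Scaled to the same total, 8 of the 10 passed for PE in knockdown cells (2 higher, 6 lower). Over all genes, the knockdown in PBS called 997, 1859 without the 3 libraries far from their groups, and 517 to 1183 with a library left out (517 without PBS control library 3, 558 without PBS control library 1). The knockdown in PE called 2553, 4664 without those 3, and 1673 (without PE knockdown library 2) to 3503. The interaction called 12, 144 without those 3, 124 with DESeq2 and 4 to 22 with a library left out: 4 to 7 without PE control 2 or 3, PBS control 1 or 3, PBS knockdown 3 or PE knockdown 2, and 20 to 22 without PBS knockdown 1 or 2 or PE control 1. With the same total, calls that were lower made up 71.9% in place of 50.5% and 69.2% in place of 51.1% for PE in control and knockdown cells, and 51.0% in place of 70.2% and 42.3% in place of 60.9% for the knockdown in PBS and PE. The cause was not tested. With the replicate number as a block, 4, 5, 4, 6 and 0 of the 10 genes were called, as without it; libraries of the same number had residuals that correlated between -0.435 and 0.409, so the numbers were not taken as pairs. Precision is limited by 3 libraries per group, and the SE of the log2 changes was largest for Sema6a (0.21), Sema3a (0.17) and Plxnc1 (0.16).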

Other observations

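Other guidance families were looked at for context. Of 19 Slit, Robo, netrin and netrin receptor genes, 0 rose and 6 fell with the knockdown in PBS, and 0 rose and 7 fell in PE (limma, adjusted p under 0.05). Over all genes 1.36% were higher and 3.21% lower in PBS, and 4.57% and 7.14% in PE. The median log2 change of the list was -0.25 in both, beside 0.0013 and 0.013 over all genes. Slit2, a secreted repellent bound by Robo receptors, fell from 1418 ± 79.3 to 676 ± 66.1 normalised read counts in PBS and from 1776 ± 24.3 to 622 ± 40.1 in PE (mean ± SD, n = 3 per group). Slit3 fell by 1.28 ± 0.18 and 1.45 ± 0.18 on the log2 scale, and Robo2 by 1.08 and 1.34. These are long genes too: Slit2 spans 325 kb and Slit3 587 kb.

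Of 20 Eph receptors and ephrins tested, 3 rose and 9 fell with PE in control cells (median -0.51). Over all genes 12.6% were higher and 12.8% lower. Epha2 rose by 1.86, while Efnb3, an ephrin that spans the membrane, fell by 2.58 and Ephb6 by 1.68. With the knockdown 1 rose and 1 fell in PBS, and 1 rose and 3 fell in PE, led by Efna5 at -0.74 in PBS and -1.36 in PE. Efna5 spans 277 kb.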
